A study of Mus musculus with 10 samples.

Results

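The 10 genes described here were *Vldlr*, *Galnt15*, *Galnt10*, *Mfsd6*, *Pard3b*, *Serpinb8*, *Peli2*, *Slc25a23*, *Clic5* and *Ptprk*. They were chosen by name from the 43346 genes of the raw count table because their RNA levels differed between Kat5 ko clones and Ep400 ko clones, 9 being higher in the Ep400 ko clones and *Ptprk* being higher in the Kat5 ko clones. The difference between the knockouts is therefore given as a description without a test. What the choice left undetermined was where the wildtype level lay, and the question for each gene was whether it moved away from wildtype in the Kat5 ko clones, in the Ep400 ko clones, or in both and in opposite directions.

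The cells were O9-1 cells, a tetraploid mouse line derived from the cranial neural crest, grown in preconditioned medium on Matrigel. Polyadenylated RNA was sequenced from 4 independent samples of unedited wildtype cells, from 3 clones with a Kat5 knockout (Kat5/1 to Kat5/3) and from 3 clones with an Ep400 knockout (Ep400/1 to Ep400/3). The clones had been made with CRISPR/Cas9 and each was grown from a single cell, so that the 3 libraries of a knockout are 3 clones with different mutations of the same gene. All alleles carried frameshifts in the Kat5 ko clones and in Ep400/1, whereas Ep400/2 and Ep400/3 also kept alleles with an in-frame deletion at the ATP binding site. The wildtype samples were not single-cell clones.

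Kat5 is a histone acetyltransferase and Ep400 is an ATP-dependent chromatin remodeler that exchanges histone H2A.Z. They are subunits of the same Tip60/Ep400 complex, which is best known as a co-activator of transcription, so that opposite changes after loss of one or the other subunit are of interest. The 10 genes do not belong to a single pathway. They code for a lipoprotein and reelin receptor, a receptor-type phosphatase, enzymes that start the addition of O-linked sugars, transporters, a chloride intracellular channel protein, a polarity protein, a protease inhibitor and a ubiquitin ligase.

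Between 30968945 and 48301792 reads per library were counted on genes, and mitochondrial genes took 0.893% to 3.24% of them. *Kat5* RNA was at 2003 ± 148 normalized counts in wildtype cells (SD, n = 4) and at 776 ± 143 in the Kat5 ko clones (SD, n = 3), and *Ep400* RNA was at 5941 ± 145 in wildtype cells (SD, n = 4) and at 2184 ± 129 in the Ep400 ko clones (SD, n = 3). Each was lowest in the clones labelled as its knockout. Of 15 neural crest markers, 12 had a mean above 100 normalized counts, while *Sox10* was at 0 in every library. Their summed level was 40880 to 44976 in wildtype, 43615 to 54184 in Kat5 ko and 71512 to 73336 in Ep400 ko libraries, with *Pdgfra* between 19363 and 24156 in the Ep400 ko clones and between 3915 and 5076 in wildtype cells. *Cd44*, at up to 25128, also weighed heavily in the sum. Single markers went both ways in the Ep400 ko clones. *Pdgfra*, *Pdgfrb*, *Tfap2a*, *Snai2*, *Twist1*, *Msx2* and *Pax3* lay above all wildtype libraries, and *Sox9* (1518 to 2093) and *Snai1* (530 to 630) lay below them. Kat5/1 stood apart by smooth muscle markers. *Acta2* was at 18801 and *Tagln* at 6707 in this clone, against at most 2175 and 155 in the other libraries, and 3 of the 5 markers of this list stayed under 10 in every library. Summed markers of glia, epithelium and endothelium stayed at or below 263 in every library, those of neurons were at 113 to 212 in wildtype, 65.7 to 376 in Kat5 ko and 233 to 955 in Ep400 ko libraries, and of the pluripotency list *Pou5f1* was at 0 throughout while *Sox2* was at 1238 to 1844 in wildtype, 665 to 2651 in Kat5 ko and 1499 to 6132 in Ep400 ko libraries. Whether these differences had a part in the levels of the 10 genes was not tested. In bulk RNA, fewer cells with a transcript and less transcript per cell cannot be told apart.

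A normalized count is the raw count divided by the relative size of its library on a common TMM scale for all 10 libraries, and differences are log2-fold changes. A gene was taken as changed in a knockout where the adjusted p of edgeR's quasi-likelihood test was at most 0.05, and it was called where the change was also at least 1 on the log2 scale and the mean exceeded 100 normalized counts in at least 1 group. By these criteria, *Vldlr* and *Ptprk* changed in both knockouts, in opposite directions. *Galnt15*, *Mfsd6*, *Pard3b*, *Serpinb8*, *Peli2*, *Slc25a23* and *Clic5* changed in the Ep400 ko clones alone, always upward, and *Galnt10* passed the test in neither knockout.

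Of the 10 genes, 2 were called in the Kat5 ko clones, 1 lower and 1 higher, where 0.476% of the 13434 tested genes were called (0.365% lower and 0.112% higher). In the Ep400 ko clones 8 were called, all higher, where 6.41% of the 13836 tested genes were called and 4.11% were called higher. By the adjusted p alone, the same 2 genes passed in the Kat5 ko clones (0.625% of all genes, 0.179% higher and 0.447% lower), and 9 passed in the Ep400 ko clones, 8 higher and *Ptprk* lower (13.7% of all genes, 8% higher and 5.72% lower). The clones in these tests are those on which the genes were chosen, and both tests use the same 4 wildtype libraries. The counts therefore place the wildtype level and are not independent evidence that the genes respond to the knockouts. The median log2-fold change of the 10 genes was −1.51 in the Kat5 ko clones and 2.20 in the Ep400 ko clones, and the median size of the change over all tested genes was 0.31 and 0.39, respectively.

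Ranges gave a wider picture than the test. For *Vldlr*, *Galnt10*, *Mfsd6*, *Serpinb8*, *Peli2*, *Slc25a23* and *Clic5*, all 3 Kat5 ko clones lay below the lowest wildtype library and all 3 Ep400 ko clones lay above the highest. That order was found in 1.49% of 14079 genes. *Ptprk* showed the reverse order, which was found in 1.04%. Choosing genes by the difference between the knockouts makes either order more likely than among all genes. For *Galnt15* and *Pard3b*, the Kat5 ko clones overlapped with wildtype and the Ep400 ko clones lay above it. Taken one knockout at a time, all Kat5 ko clones were below wildtype for 10.2% and above it for 9.67% of tested genes, and all Ep400 ko clones were above it for 16.1% and below it for 14.1%.

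**Figure D1:**
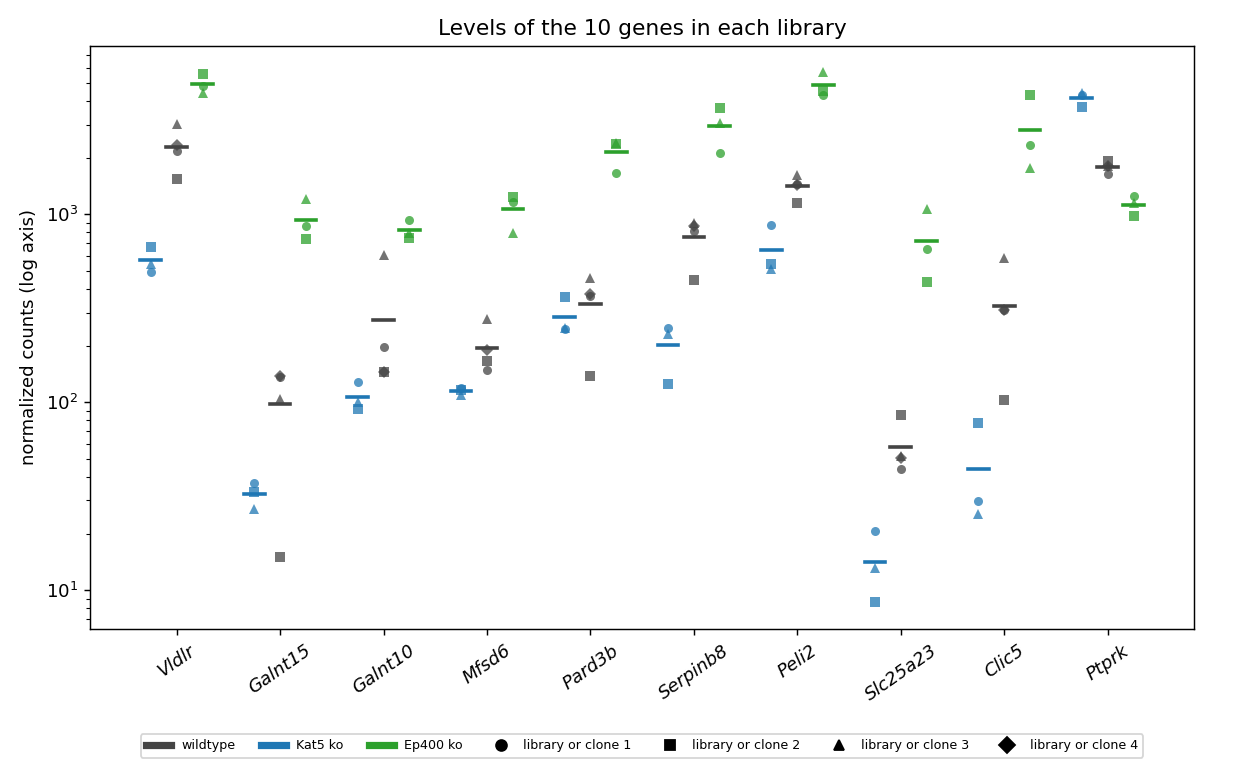
Normalized counts of the 10 genes in each of the 10 libraries, on a log axis. Symbols are single libraries or clones and bars are group means. For 9 genes the Ep400 ko clones lie highest, for *Ptprk* they lie lowest, and the wildtype libraries lie between the knockouts except for *Galnt15* and *Pard3b*, where wildtype library 2 lies below the Kat5 ko clones.

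Promoter sequence is shown for 3 genes, since *Clic5* and *Slc25a23* had the largest differences between the knockouts and *Ptprk* was the one gene with the opposite direction. Each window runs from 250 bases before to 50 bases after a transcription start in RefSeq (GRCm38.p6), on the strand of the gene, and capitals mark GC boxes (GGGCGG or its reverse complement, the core that Sp1-type factors bind). The *Clic5* window is chr17:44188322-44188621 (+), the *Slc25a23* window is chr17:57059814-57060113 (−) and the *Ptprk* window is chr10:28074570-28074869 (+).
Clic5: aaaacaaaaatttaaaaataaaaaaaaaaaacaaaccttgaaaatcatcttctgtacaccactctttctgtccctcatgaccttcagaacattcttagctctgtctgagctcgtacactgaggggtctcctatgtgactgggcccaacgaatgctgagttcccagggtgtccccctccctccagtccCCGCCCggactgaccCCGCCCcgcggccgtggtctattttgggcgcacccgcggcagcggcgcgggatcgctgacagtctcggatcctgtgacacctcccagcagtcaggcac
Slc25a23: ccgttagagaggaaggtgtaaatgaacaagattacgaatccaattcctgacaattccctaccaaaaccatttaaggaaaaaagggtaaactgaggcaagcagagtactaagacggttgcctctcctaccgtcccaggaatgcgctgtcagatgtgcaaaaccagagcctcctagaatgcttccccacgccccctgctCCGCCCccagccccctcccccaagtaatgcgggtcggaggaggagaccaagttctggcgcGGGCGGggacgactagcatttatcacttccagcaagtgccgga
Ptprk: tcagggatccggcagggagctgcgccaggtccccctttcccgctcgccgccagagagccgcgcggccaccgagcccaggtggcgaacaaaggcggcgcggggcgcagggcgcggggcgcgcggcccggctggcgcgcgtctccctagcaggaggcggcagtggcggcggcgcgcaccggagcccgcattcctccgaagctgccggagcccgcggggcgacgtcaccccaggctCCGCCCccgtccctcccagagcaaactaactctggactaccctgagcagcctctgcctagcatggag

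The RefSeq table held 13 such windows for the 10 genes, and all 10 genes were matched. A GC box on either strand was present in 8 of the 13 windows, those of *Vldlr*, *Mfsd6*, *Peli2*, *Slc25a23*, *Clic5* and *Ptprk*, and in 35.7% of 32851 windows of all genes. The AP-1 motif TGANTCA was present in 2 of the 13, those of *Galnt15* and *Serpinb8*, and in 7.81% of all windows. CCAAT was found in 3 of the 13 and in 37.4% of all. Neither the E-box CACGTG nor TATAAA occurred in any of the 13 windows, against 7.15% and 13.6% of all windows. All motifs were searched on both strands, and none of them contains another. The windows of the same gene overlapped for *Mfsd6* and for *Slc25a23*. The GC content of the 13 windows ranged from 43% to 75% with a median of 62.7%, and the median of all windows was 52.7%. *Ptprk* thus shares the GC box with genes that moved the other way. These are matches of letters and not measured binding.

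Among surface receptors, *Vldlr* (ENSMUSG00000024924, chromosome 19, 27216484 to 27254231, plus strand) codes for the very low density lipoprotein receptor, which also serves as a receptor for reelin. Wildtype libraries 1 to 4 had 2164, 1543, 3028 and 2327 normalized counts. The Kat5 ko clones had 495, 665 and 547, and the Ep400 ko clones had 4833, 5575 and 4394. The groups did not overlap, with every Kat5 ko clone below and every Ep400 ko clone above all wildtype libraries. *Vldlr* fell in the Kat5 ko clones by 2.02 on the log2 scale (SE 0.24, adjusted p = 0.0207 by edgeR), to 25.1% of the wildtype mean. It rose by 1.12 in the Ep400 ko clones (SE 0.22, adjusted p = 0.0142 by edgeR), which was 2.18-fold. The mean was 8.67-fold higher in Ep400 ko than in Kat5 ko clones, and on the log2 scale wildtype lay nearer to the Ep400 ko clones.

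*Ptprk* (ENSMUSG00000019889, chromosome 10, 28074820 to 28597397, plus strand) codes for a receptor-type protein tyrosine phosphatase with homophilic adhesion. It was at 1643, 1914, 1795 and 1801 normalized counts in wildtype libraries 1 to 4, the narrowest wildtype range of the 10 genes. It was at 4309, 3736 and 4407 in the Kat5 ko clones and at 1254, 973 and 1141 in the Ep400 ko clones. Here every Kat5 ko clone lay above and every Ep400 ko clone below all wildtype libraries. *Ptprk* rose in the Kat5 ko clones with a log2-fold change of 1.19 (SE 0.13, adjusted p = 0.0174 by edgeR), to 2.32-fold of the wildtype mean. It fell in the Ep400 ko clones by 0.67 (SE 0.14, adjusted p = 0.0194 by edgeR), which is under the fold limit, so that *Ptprk* was not called there.

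The calls of *Vldlr* and *Ptprk* in the Kat5 ko clones depended on single libraries, as did the calls over all genes. Without wildtype library 1 the adjusted p was 0.0975 for both, without wildtype library 4 it was 0.0985 for both, and without Kat5/3 it was 0.0925 for *Vldlr* and 0.0749 for *Ptprk*, while the log2-fold changes stayed between −2.15 and −1.84 and between 1.14 and 1.27 over all left-out libraries. The loss of calls was not particular to these genes. Over all genes, 1 instead of 64 was called for Kat5 when either of these wildtype libraries was dropped. Dropping Kat5/3 left 4 called genes. In the Ep400 ko clones, *Vldlr* changed by 0.97 without wildtype library 2, just under the fold limit. For *Ptprk* there, the adjusted p was 0.0526, 0.0571 and 0.0565 without wildtype libraries 1, 2 and 4, respectively.

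Of the enzymes that transfer the first sugar of mucin-type O-glycans to proteins, *Galnt15* (ENSMUSG00000021903, chromosome 14, 32028989 to 32062197, plus strand) had 137, 15.1, 104 and 137 normalized counts in wildtype libraries 1 to 4. It had 37.0, 33.1 and 27.1 in the Kat5 ko clones and 862, 737 and 1212 in the Ep400 ko clones. Wildtype library 2 lay below all Kat5 ko clones, so that these groups overlapped, and the Ep400 ko clones lay far above all other libraries. *Galnt15* rose in the Ep400 ko clones with a log2-fold change of 3.25 (SE 0.60, adjusted p = 0.0123 by edgeR), which was 9.53-fold. For the Kat5 ko clones the value was −1.63 (SE 0.68, adjusted p = 0.206 by edgeR).

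*Galnt10* (ENSMUSG00000020520, chromosome 11, 57645442 to 57787514, plus strand), an enzyme of the same family, had 196, 145, 607 and 145 normalized counts in wildtype libraries 1 to 4. It had 127, 92.1 and 100.2 in the Kat5 ko clones and 934, 746 and 798 in the Ep400 ko clones. The groups did not overlap, but wildtype library 3 was nearer to the Ep400 ko clones than to the other wildtype libraries. The log2-fold change was −1.39 in the Kat5 ko clones (SE 0.56, adjusted p = 0.193 by edgeR) and 1.59 in the Ep400 ko clones (SE 0.50, adjusted p = 0.0676 by edgeR). Without wildtype library 3 the value in the Ep400 ko clones was 2.34 and passed the test (adjusted p = 0.00313 by edgeR), and the value in the Kat5 ko clones shrank to −0.62 (adjusted p = 0.314 by edgeR). With all libraries, DESeq2 gave an adjusted p of 0.0102 in the Ep400 ko clones and of 0.0635 in the Kat5 ko clones.

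Among membrane transport proteins, *Slc25a23* (ENSMUSG00000046329, chromosome 17, 57043711 to 57059863, minus strand) codes for a calcium-regulated carrier of ATP-Mg and phosphate in the inner mitochondrial membrane. It was at 44.0, 85.0, 51.5 and 50.2 normalized counts in wildtype libraries 1 to 4. It was at 20.5, 8.59 and 13.1 in the Kat5 ko clones and at 654, 437 and 1069 in the Ep400 ko clones. The clones of each knockout were entirely on their own side of wildtype. *Slc25a23* rose 12.5-fold in the Ep400 ko clones, with a log2-fold change of 3.64 (SE 0.38, adjusted p = 0.00223 by edgeR), the largest upward change of the 10 genes. In the Kat5 ko clones the log2-fold change was −2.04 (SE 0.47, adjusted p = 0.0754 by edgeR), and means of 57.7 and 14.1 could not pass the limit of 100 normalized counts. Its adjusted p in the Kat5 ko clones was 0.0197 without Kat5/1 and 0.00159 by DESeq2.

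*Clic5* (ENSMUSG00000023959, chromosome 17, 44188584 to 44280172, plus strand) codes for a chloride intracellular channel protein that associates with the actin cortex through ezrin-type proteins. It had 308, 102, 583 and 311 normalized counts in wildtype libraries 1 to 4. The Kat5 ko clones had 29.8, 77.3 and 25.5, and the Ep400 ko clones had 2329.5, 4328 and 1753. No group overlapped with another, although wildtype library 2 came close to Kat5/2. *Clic5* rose in the Ep400 ko clones with a log2-fold change of 3.10 (SE 0.53, adjusted p = 0.00968 by edgeR), which was 8.59-fold. In the Kat5 ko clones its mean was 13.5% of wildtype, the lowest share of the 10 genes, with a log2-fold change of −2.92 (SE 0.66, adjusted p = 0.0744 by edgeR). DESeq2 gave an adjusted p of 2.17e-05 for this comparison.

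*Mfsd6* (ENSMUSG00000041439, chromosome 1, 52656286 to 52727462, minus strand) codes for a multipass membrane protein of the major facilitator superfamily. Wildtype libraries 1 to 4 had 148, 166, 277 and 189 normalized counts, the Kat5 ko clones 119, 115 and 109, and the Ep400 ko clones 1160.4, 1232 and 794. The Kat5 ko clones were close to each other and just below wildtype, and the Ep400 ko clones were well above it. *Mfsd6* rose 5.45-fold in the Ep400 ko clones, with a log2-fold change of 2.44 (SE 0.27, adjusted p = 0.0026 by edgeR). Its value in the Kat5 ko clones was −0.80 (SE 0.31, adjusted p = 0.182 by edgeR).

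*Pard3b* (ENSMUSG00000052062, chromosome 1, 61638824 to 62642284, plus strand) codes for a relative of the polarity scaffold Par3 that is found at cell junctions. It was at 365, 138, 457 and 374 normalized counts in wildtype libraries 1 to 4, at 244, 363 and 249 in the Kat5 ko clones and at 1649, 2372 and 2386 in the Ep400 ko clones. The Kat5 ko clones lay within the wildtype range. *Pard3b* rose 6.40-fold in the Ep400 ko clones, with a log2-fold change of 2.68 (SE 0.36, adjusted p = 0.0047 by edgeR). The value in the Kat5 ko clones, −0.26 (SE 0.39, adjusted p = 0.737 by edgeR), was the smallest of the 20 differences from wildtype.

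*Serpinb8* (ENSMUSG00000026315, chromosome 1, 107590006 to 107610484, plus strand) codes for an intracellular serine protease inhibitor of clade B. Wildtype libraries 1 to 4 had 816, 445, 899 and 869.8 normalized counts, the Kat5 ko clones 249, 125 and 232, and the Ep400 ko clones 2112, 3679.7 and 3066. The 3 groups did not overlap. *Serpinb8* rose in the Ep400 ko clones with a log2-fold change of 1.96 (SE 0.28, adjusted p = 0.00528 by edgeR). The distance in the Kat5 ko clones was of the same size, at −1.93 (SE 0.34), but narrowly missed the threshold (adjusted p = 0.0542 by edgeR). It passed without wildtype library 2 (adjusted p = 0.0382), without Kat5/1 (adjusted p = 0.0131) and in DESeq2 (adjusted p = 2.72e-06).

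*Peli2* (ENSMUSG00000021846, chromosome 14, 48120823 to 48281575, plus strand) codes for a Pellino ubiquitin ligase that acts in signaling from interleukin-1 and Toll-like receptors. Wildtype libraries 1 to 4 had 1449, 1145, 1609 and 1431 normalized counts, the Kat5 ko clones 873, 541 and 509.8, and the Ep400 ko clones 4306, 4541 and 5683. Again the 3 groups did not overlap, and Kat5/1 was the Kat5 ko clone nearest to wildtype. *Peli2* rose 3.44-fold in the Ep400 ko clones, with a log2-fold change of 1.78 (SE 0.16, adjusted p = 0.00133 by edgeR). The log2-fold change in the Kat5 ko clones was −1.16 (SE 0.23, adjusted p = 0.0683 by edgeR). Without Kat5/1 it was −1.46 and passed (adjusted p = 0.00471), and it also passed with DESeq2 (adjusted p = 0.000599).

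DESeq2 thus called 5 of the 10 genes in the Kat5 ko clones instead of 2, adding *Serpinb8*, *Peli2* and *Clic5*, and called 535 genes in all instead of 64. Without Kat5/1, the clone with smooth muscle markers, edgeR called 4 of the 10 genes and 881 in all. A missed threshold in the Kat5 ko clones does not show that a gene stayed at the wildtype level.

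The distance between the knockouts, for which no test is given, was largest for *Clic5* with a log2-fold change of 5.99, followed by *Slc25a23* with 5.63 and *Galnt15* with 4.83. These ranked 65, 85 and 157 by size among 13587 genes. *Serpinb8* had 3.84, *Mfsd6* 3.19, *Vldlr* 3.10, *Galnt10* 2.93, *Peli2* 2.89 and *Pard3b* 2.88, and *Ptprk* had −1.91 at rank 1251. In this comparison 5.35% of genes were called, with 3.05% higher and 2.3% lower in the Ep400 ko clones. Scaling by library size without TMM gave 474 higher among 665 called genes instead of 415 among 727. Nothing is read from the call of all 10 genes, since it was the reason for choosing them. The lowest Ep400 ko clone was 22.7-fold above the highest Kat5 ko clone for *Clic5* and 4.54-fold for *Pard3b*, the extremes among the 9 genes.

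**Figure D2:**
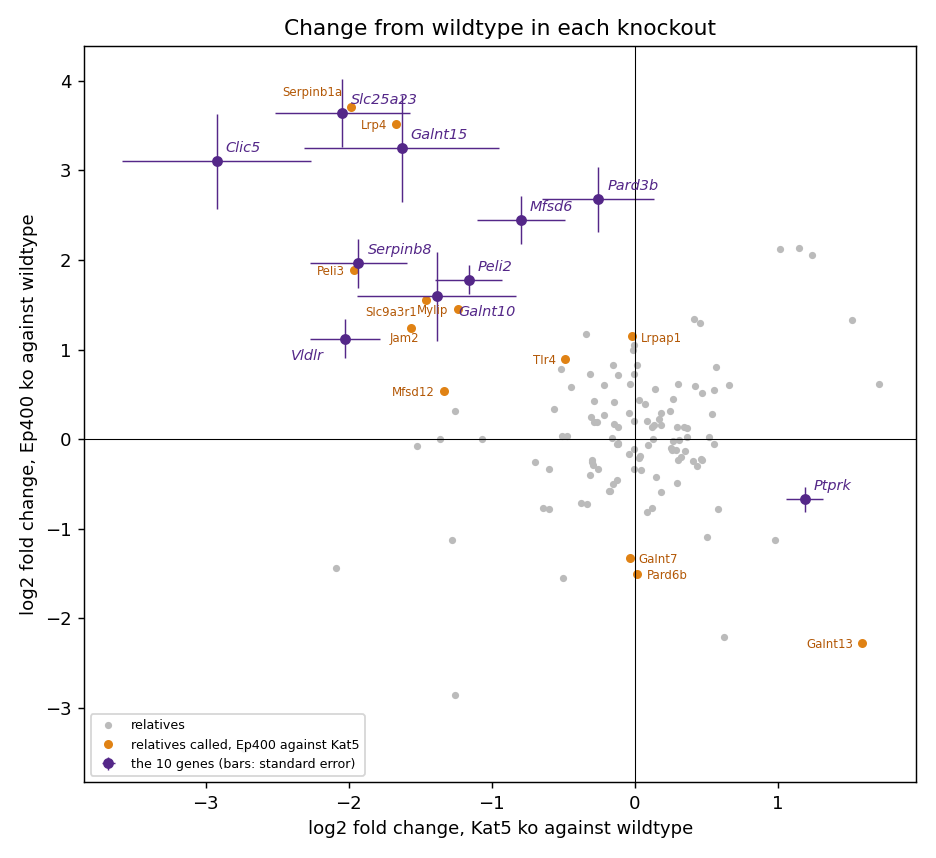
Log2-fold change from wildtype in the Kat5 ko clones (x axis) and in the Ep400 ko clones (y axis) for the 10 genes, with standard errors as bars, and for their relatives from the gene lists as points. Of the 10 genes, 9 lie to the upper left, *Pard3b* nearest to 0 on the x axis, and *Ptprk* lies to the lower right. Relatives that were called between the knockouts are in orange.

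Levels per kilobase of exon allow a comparison between genes. In wildtype cells *Vldlr* was highest with 225 ± 60.6 normalized counts per kilobase (SD, n = 4), ahead of *Serpinb8* with 158 ± 44.1, *Peli2* with 155 ± 21.2 and *Ptprk* with 134 ± 8.4. *Galnt10*, *Clic5*, *Pard3b*, *Mfsd6* and *Galnt15* followed between 45.8 and 15.5, and *Slc25a23* was lowest with 10.9. Neighbours in this order had overlapping ranges, except that all wildtype libraries were higher for *Ptprk* than for *Galnt10*, the next gene. Among the Kat5 ko clones *Ptprk* was highest with 311 ± 27.2 (SD, n = 3), and the other 9 genes lay between 2.66 and 70.6, with no overlap between *Ptprk* and the next gene, *Peli2*. In the Ep400 ko clones *Ptprk* was lowest of the 10 with 84.2 ± 10.6, and *Serpinb8* was highest with 616 ± 165 (SD, n = 3), followed by *Peli2* with 533, *Vldlr* with 490.1 and *Clic5* with 319, while the other 5 lay between 129 and 162. The place of *Ptprk* among the 10 by mean thus ran from the top in one knockout to the bottom in the other. At the bottom its range overlapped with that of *Slc25a23* (136 ± 60.7). The change of place is in large part set by the choice of the genes for opposite differences between the knockouts.

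Wildtype library 3 was highest for 7 of the 10 genes, and wildtype library 2 was lowest for 6 and highest for 2 (*Slc25a23* and *Ptprk*). Within the wildtype group the highest library was 9.12-fold above the lowest for *Galnt15*, 5.70-fold for *Clic5* and 4.19-fold for *Galnt10*, but 1.17-fold for *Ptprk* and 1.40-fold for *Peli2*. Among the Kat5 ko clones, Kat5/1 was highest for 6 of the 9 genes without *Ptprk* and Kat5/3 for none. Among the Ep400 ko clones, Ep400/2 and Ep400/3 were each highest for 4 of the 9 and Ep400/1 for 1. Ep400/1, Ep400/2 and Ep400/3 were each lowest for 3 of the 9. The paper reports that staining did not detect Ep400 protein in any of these clones. Whether the kind of *Ep400* mutation had a part in the levels was not tested.

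Each gene was also set beside the other tested genes of its chromosome. Chromosome 19, which holds *Vldlr* and also *Kat5*, had median log2 differences from wildtype of −0.09, −0.20 and −0.31 in the Kat5 ko clones and of 0.29, 0.27 and 0.24 in the Ep400 ko clones, the same directions as *Vldlr*. After subtraction of these medians *Vldlr* was at −1.76 instead of −1.96 in the Kat5 ko clones and at 0.89 instead of 1.16 in the Ep400 ko clones. For the other 9 genes the subtraction moved the mean difference by less than 0.2 in each knockout. *Galnt10* was at 2.05 instead of 1.87 in the Ep400 ko clones, and *Pard3b* at −0.01 instead of −0.12 in the Kat5 ko clones.

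**Figure D3:**
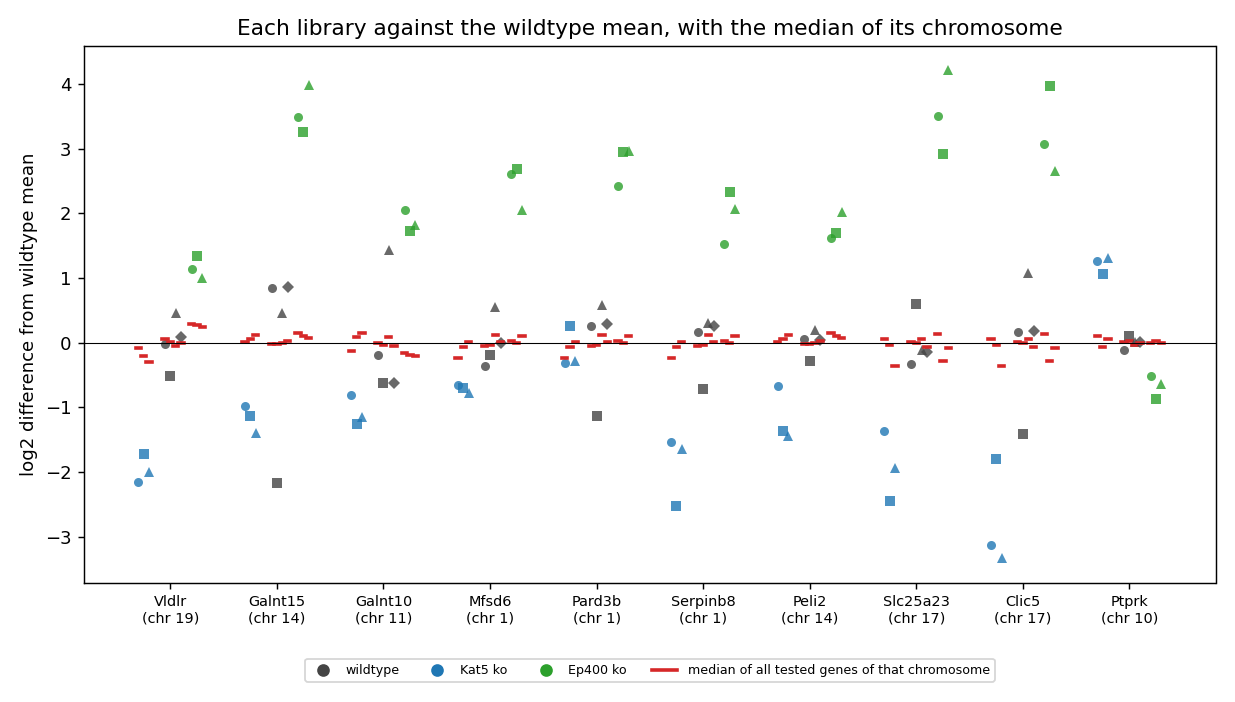
Log2 difference of each library from the wildtype mean for the 10 genes, with the median of all tested genes of the same chromosome in that library as a red bar. Symbols stand for library or clone number. The chromosome medians stay within 0.36 of 0, and for *Vldlr* they lie on the side of the gene in both knockouts.

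Of 20 nearest neighbours, 1 on each side of each gene, 19 were tested in each comparison with wildtype. In the Kat5 ko clones 0 were called, where 0.476% of all tested genes were called. In the Ep400 ko clones 3 were called, where 6.41% of all tested genes were called. These were *Smarca2*, 438 kb from *Vldlr* and coding for a remodeler ATPase of the BAF complex, with a log2-fold change of 1.54 (adjusted p = 0.00528), *2010001A14Rik*, 7.99 kb from *Galnt10*, with 1.77 (adjusted p = 0.0112), and *Tmem260*, 165 kb from *Peli2*, with 1.36 (adjusted p = 0.00814, all by edgeR). *Smarca2* had means of 1638 in wildtype, 1089 in Kat5 ko and 4763 in Ep400 ko cells. *Runx2*, the osteoblast transcription factor next to *Clic5*, was at 2801, 2752 and 3390, and *Nrp2*, a semaphorin receptor next to *Pard3b*, at 10414, 9569 and 10573. *Serpinb2*, the nearest tested gene to *Serpinb8*, was at 19.0, 271, 3.89 and 7.41 in wildtype libraries 1 to 4, at 29.6 to 137 in the Kat5 ko clones and at most at 1.85 in the Ep400 ko clones. Its wildtype mean of 75.4 rested on wildtype library 2 and was 10.1 without it, and *Serpinb2* was not tested in the Ep400 ko clones against wildtype. In windows of 1 Mb to each side, which held 3 to 37 genes, the median log2-fold change ranged from −0.27 to 0.17 in the Kat5 ko clones and from −0.14 to 0.43 in the Ep400 ko clones. No gene in the window changed as much in the same direction for 6 of the 10 genes in the Kat5 ko clones. In the Ep400 ko clones this held for 7 of the 10, the exceptions being *Vldlr*, *Galnt10* and *Peli2*. The 10 genes were chosen for their differences between the same clones. Such a choice makes this outcome likely, and nothing is read from it.

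The annotation lists 24 genes that overlap with 7 of the 10. Of these, 20 were in the count table, none with a group mean above 13.5 normalized counts. For *Slc25a23* this includes *Crb3* on the opposite strand, with means of 0, 0 and 0.618.

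Relatives and partners of the 10 genes were taken from 9 lists by family and pathway with 178 genes, of which 127 were tested in each comparison. In the Kat5 ko clones 0 were called by edgeR, with 29 at an unadjusted p under 0.05 (14 higher and 15 lower) and 12 called by DESeq2. The 29 were 22.8% of the relatives, against 22.3% of all tested genes, and the 12 stood beside 535 genes that DESeq2 called in all. In the Ep400 ko clones 20 were called (15.7% against 6.41% of all genes), 12 higher and 8 lower. Between the knockouts 12 were called (9.45% against 5.35%), 9 higher and 3 lower in the Ep400 ko clones. The relatives were listed by family, but with earlier results of these data known, so that the shares are only a description. The p-values are adjusted over all tested genes. These counts moved when single libraries were left out, and so did the counts over all genes. Between the knockouts 0 relatives were called without Kat5/3 or without Ep400/3, 1 without Kat5/2, 2 without Ep400/2, 5 without Ep400/1 and 25 without Kat5/1. Against wildtype, 13 were called for Kat5 without Kat5/1, and for Ep400 8 without wildtype library 1 or 4, 11 without wildtype library 2 and 13 without Ep400/2. Over all genes, 881 instead of 64 were called for Kat5 without Kat5/1. For Ep400, 532, 534 and 588 instead of 887 were called without wildtype libraries 1, 4 and 2, respectively. Of the 12 called between the knockouts, 5 had all Kat5 ko clones below and all Ep400 ko clones above wildtype, and 1 had the reverse order. These orders were found in 1.49% and 1.04% of 14079 genes. The 12 were picked by their difference between the knockouts, which makes such orders more likely.

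Among lipoprotein receptors and the reelin pathway, 3 of 15 tested genes were called between the knockouts, all higher in Ep400 ko clones. *Lrp4*, a receptor of the same family, had means of 32.8 normalized counts in wildtype, 10.4 in Kat5 ko and 376 in Ep400 ko cells, with Ep400 ko clones from 101 to 682, and differed between the knockouts by a log2-fold change of 5.13 (adjusted p = 0.0271 by edgeR). *Mylip*, a ubiquitin ligase that directs lipoprotein receptors including Vldlr to degradation, differed by 2.64 (adjusted p = 0.035), with means of 875, 378 and 2397. *Lrpap1*, a chaperone of these receptors, differed by 1.12 (adjusted p = 0.0469). Against wildtype *Lrp11* rose in the Ep400 ko clones by 2.12 (adjusted p = 0.0124 by edgeR). *Lrp8*, a reelin receptor like *Vldlr*, was at 3813, 4868 and 3320 normalized counts in the 3 groups and was called in no comparison.

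Of the O-glycosylation genes, 2 of 15 were called between the knockouts, both lower in Ep400 ko clones and so opposite to *Galnt15* and *Galnt10*. *Galnt13* had means of 99.9 in wildtype, 305 in Kat5 ko and 20.8 in Ep400 ko cells, a difference of −3.91 between the knockouts (adjusted p = 0.0367 by edgeR), with the ranges in the order of *Ptprk*. *Galnt7* differed by −1.34 (adjusted p = 0.0297 by edgeR) and was at 3118, 3109.8 and 1249. *Galnt18* rose in the Ep400 ko clones by 2.05 (adjusted p = 0.0155 by edgeR). *Galnt1*, with 6982, 6532 and 5085 the most abundant enzyme named here, and *Galnt2*, with means of 11.6, 11.3 and 17.6, were not called. The enzymes of this family thus moved in both directions.

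Among transporters, *Mfsd12*, which moves cysteine into lysosomes and melanosomes, was the one of 13 tested relatives of *Mfsd6* called between the knockouts, with 1.82 (adjusted p = 0.0295 by edgeR). Its means were 1061, 429 and 1545 in wildtype, Kat5 ko and Ep400 ko cells, with ranges in the order of most of the 10 genes. In the Ep400 ko clones *Mfsd1* rose by 1.05, and *Mfsd9* and *Mfsd13a* fell by 1.13 and 1.44 (adjusted p = 0.011, 0.0341 and 0.0258 by edgeR). Of the 17 tested mitochondrial carriers and calcium handling genes, 0 were called by edgeR between the knockouts. The paralogs *Slc25a24* (7868, 9951 and 7849 normalized counts) and *Slc25a25* (577, 879.6 and 336) were not called either, with differences between the knockouts of −0.36 (adjusted p = 0.416) and −1.41 (adjusted p = 0.0589). The adenine nucleotide translocator *Slc25a5* fell in the Ep400 ko clones by 1.09 (adjusted p = 0.0308 by edgeR).

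Of the 8 tested genes around Clic5, *Slc9a3r1*, which codes for a scaffold that binds ezrin-type proteins, was called between the knockouts with 2.97 (adjusted p = 0.0294 by edgeR). It was at 207, 76.5 and 609 in wildtype, Kat5 ko and Ep400 ko cells, again with Kat5 ko clones below and Ep400 ko clones above wildtype. *Pdpn*, a mucin-type membrane protein that binds ezrin-type proteins, rose in the Ep400 ko clones by 1.34 (adjusted p = 0.024 by edgeR). *Clic1* and *Clic4* were far more abundant than *Clic5* and were not called, at 22125, 18823 and 17620.3 and at 12354, 9066 and 12674 normalized counts. Of 21 polarity genes, *Jam2*, a junctional adhesion molecule, was higher between the knockouts with 2.76 and *Pard6b*, which codes for a partner of Par3 proteins, lower with −1.57 (adjusted p = 0.0332 and 0.0466 by edgeR). *Pard3* itself was at 3365, 3424 and 3129 and was not called.

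Of the clade B serpins, 6 were tested between the knockouts and *Serpinb1a*, an inhibitor of neutrophil-type serine proteases, was called with 5.63 (adjusted p = 0.0169 by edgeR). Its means of 41.2 in wildtype, 10.4 in Kat5 ko and 540.0 in Ep400 ko cells followed the order of *Serpinb8*. *Serpinb2* differed between the knockouts in the other direction, with −5.94 (adjusted p = 0.0295 by edgeR), and was not called because its means were under the limit of 100 normalized counts. Of 20 genes of Pellino and Toll-like receptor signaling, *Peli3*, a paralog of *Peli2*, was called with 3.80 and *Tlr4*, the receptor for lipopolysaccharide, with 1.34 (adjusted p = 0.0355 and 0.0409 by edgeR). *Peli3* was at 221, 57.3 and 819.5 in the 3 groups, whereas *Peli1* was at 635, 692 and 605 and was not called.

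Of 12 tested receptor-type phosphatases, 0 were called by edgeR between the knockouts. In the Ep400 ko clones *Ptprm*, the close paralog of *Ptprk*, rose by 2.13, *Ptprj* by 1.17 and *Ptprb* by 1.33, and *Ptprn* fell by 2.86 (adjusted p = 0.0322, 0.0308, 0.0192 and 0.0131 by edgeR). *Ptprm* was at 1359.6, 1197 and 1040.5 in the Ep400 ko clones and at 54.4 to 387 in wildtype libraries. The Kat5 ko clones were far apart, with 1562 in Kat5/1, above every Ep400 ko clone, 234 in Kat5/2 and 39.4 in Kat5/3.

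Over the 10 libraries, the 9 genes without *Ptprk* varied together, with Pearson's r of log2 CPM between 0.77 and 0.97 over 36 pairs and a median of 0.91. *Ptprk* had r between −0.98 and −0.74 with them. These values describe genes that were chosen for the same difference between groups, which sets them in large part. Over the same libraries the genes most like each were *Clic5* for *Vldlr* (r = 0.971), *Nhej1* for *Galnt15* (0.984), *Fa2h* for *Galnt10* (0.969), *Mgat4a* for *Mfsd6* (0.979) and *Slc36a1* for *Pard3b* (0.993). For *Serpinb8* it was *Spp1* (0.984), for *Peli2* *Mmp28* (0.994), for *Slc25a23* *Oscp1* (0.984), for *Clic5* *Wisp2* (0.975) and for *Ptprk* *Prrc2b* (0.978), among 14079 genes. *Spp1*, the secreted phosphoprotein osteopontin, was at 163235, 98405 and 277801 normalized counts in wildtype, Kat5 ko and Ep400 ko cells. *Slc36a1*, a lysosomal amino acid transporter, was at 628, 622 and 1827 and so, like *Pard3b*, differed from wildtype mainly in the Ep400 ko clones. *Mmp28*, a secreted metalloprotease, was at 258, 114 and 906. The next most similar genes were *Adipor1*, *Ednrb*, *Ace*, *Map7*, *Brox*, *Cdk14*, *Slc35f6*, *Tmem106c* and *Cntln*, for the 9 genes without *Ptprk* in the order in which they were listed at the beginning.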

How the data were processed

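Polyadenylated RNA of 10 libraries of O9-1 cells was examined. Libraries were made with TruSeq Stranded mRNA and sequenced as paired reads on a NovaSeq instrument. The submitters' processing notes name bcl2fastq 2.20, STAR 2.7.3, DESeq2 1.36.0, R 4.2.1 and mm10. The deposited counts are whole read counts per gene made by the authors. The counting program, its strand setting and the annotation are not given in the sources used here. The authors' tables of normalized values were not used, and 0 columns of samples outside the labels were present.

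Groups followed the labels. For each comparison, genes were kept by filterByExpr, scaled with TMM factors and entered into edgeR 4.0.16 (R 4.3.3; glmQLFit with robust estimation, glmQLFTest, two-sided) with Benjamini-Hochberg adjustment over all tested genes. A call required an adjusted p of at most 0.05, a log2-fold change of 1 or more in size, and over 100 normalized counts as the mean of at least 1 group. Log2 CPM used a prior count of 2. DESeq2 1.42.0 was an alternative. Robust estimation was chosen after values had been seen, and the fit without it is an added alternative. Total counts of 30968945 to 48301792 per library bound the precision of low genes such as *Slc25a23*.

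The members and lists were chosen with earlier results of these data known. Named were the 10 genes, *Kat5* and *Ep400*, relatives called in any comparison and a few close paralogs, per gene the 2 most similar genes, and among the nearest tested neighbours those called and 3 others that were picked after their values were seen. A few genes that this rule names are not reported here. Same-numbered libraries had residual correlations of −0.0957 to 0.223 over 9 pairs, so that the numbers do not pair them. Between libraries of a group, chi-square divided by its degrees of freedom was 28.1 to 258, above counting noise, and each library counted once. On simulated data with 200 genes changed by 2 on the log2 scale, the test recovered 192 for Kat5 against wildtype among 13486 genes, 199 for Ep400 against wildtype among 14008 and 136 for Ep400 against Kat5 among 13791. False calls were 9, 7 and 2, respectively. The simulation gave all genes the same spread between libraries and changed only well-counted genes. It checks the code and does not give the power for genes that vary more between clones. Gene positions are those of GENCODE M21 (GRCm38), in which 42462 of 43346 gene IDs were found.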

Additional observations from a re-analysis of the deposited data

Results flagged for a closer look

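*Galnt10* in wildtype library 3 stood apart from the other wildtype libraries, with 607 normalized counts against 145 to 196. The gap to its neighbour took 0.889 of the whole wildtype range, above the 95% limit of Dixon's test for 4 samples, which chance passes in about 1 of 20 groups. This was the largest such ratio of the 10 genes. It was taken on normalized counts and not on the log2 scale. There, wildtype library 3 lay 1.43 above the wildtype mean and the other wildtype libraries lay at −0.62 to −0.19.

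For 8 genes every Kat5 ko clone moved away from the wildtype range on one side and every Ep400 ko clone on the other. Of 14079 genes, 1.49% had the Kat5 ko clones below and the Ep400 ko clones above wildtype, and 1.04% had the reverse. Choosing genes by the difference between the knockouts makes such an order more likely. The log2 differences of Ep400 ko from Kat5 ko clones were 3.10 for *Vldlr*, 2.93 for *Galnt10*, 3.19 for *Mfsd6*, 3.84 for *Serpinb8*, 2.89 for *Peli2*, 5.63 for *Slc25a23*, 5.99 for *Clic5* and −1.91 for *Ptprk*. These differences were not tested, because the genes were chosen for them.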

How the results depend on the processing

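No log2-fold change of the 10 genes turned its direction under any alternative, namely DESeq2, other size factors, no filter on low counts, one fit of all 10 libraries, a replicate block, a fit without robust estimation, other call limits and each library left out. Against wildtype, 63 of 70 values for Kat5 and 62 of 70 for Ep400 were called or not called as in the main fit, as were 61 of 70 and 68 of 70 with a library left out. These counts use all limits of a call. By adjusted p alone more values crossed the threshold, such as *Ptprk* in the Ep400 ko clones and *Slc25a23* in the Kat5 ko clones, as given above. For Kat5 the genes called (64) were 535 with DESeq2, 178 without a filter, 23 in one fit and 1 to 881 with a library left out, the lowest without wildtype library 1 or 4 and the highest without Kat5/1. Of the relatives (0), 12, 3 and, with a library left out, 0 to 13 were called, and of the 10 genes (2), 5 with DESeq2, 4 without a filter and 0 to 4 with a library left out. For Ep400 the genes called (887) were 1899 by adjusted p alone and 532 to 1020 with a library left out, and the relatives (20) were 11 in one fit and 8 to 19 with a library left out. Of the 10 genes (8), 7 to 9 were called with a library left out. Between the knockouts the genes called (727) were 1863 with DESeq2, 1772 in one fit and 3 to 1753 with a library left out, the lowest without Ep400/3 and the highest without Kat5/1. The relatives (12) were 19 with DESeq2, 19 in one fit and 0 to 25 with a library left out, with 0 without Kat5/3 or Ep400/3. The calls among relatives thus depended on the clones used, as did the calls over all genes. The cause was not tested.

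With the replicate number as a block, which the labels do not tie to a shared culture, 0 genes were called for Kat5, among them 0 of the 10 genes, and 158 for Ep400, among them 2 relatives and 1 of the 10 genes (*Peli2*). Between the knockouts 200 genes and 2 relatives were called with the block. The block also costs residual degrees of freedom. Depth limits *Slc25a23* and *Galnt15* in the Kat5 ko clones, where they had means of 14.1 and 32.4 normalized counts.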
